A study of Arabidopsis thaliana with 12 samples.

Results

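The *rbcL* mRNA of the chloroplast was followed through an RNA co-immunoprecipitation experiment in Arabidopsis. It was read as the segments on the plus strand of the plastid genome that overlap nt 54700 to 56600 (TAIR10 chloroplast sequence), which take in the leader, the coding part and the 3′ end. These were 3 of 555 segments in the precipitate table and 15 of 574 segments in the input table. The annotation places *rbcL* on the plus strand at nt 54958 to 56397, a coding part of 1440 nt without an intron. Its neighbours are *atpB* at nt 52660 to 54156 and *atpE* at nt 52265 to 52663, both on the minus strand, and *accD* at nt 57075 to 58541 on the plus strand.

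RNA was sequenced from anti-YFP precipitates and from the soluble extracts used as their inputs. *At*MKIP1-YFP, a protein related to starch branching enzymes that binds Maturase K, was expressed in homozygous *mkip1-2* plants. The control bait *At*BE3-YFP, itself a starch branching enzyme, was expressed in Col-0, which keeps its own *At*MKIP1. Both transgenes were driven by the constitutive *UBQ10* promoter, and all seedlings were grown for 10 days with Basta. Each line gave 3 pools of 10 g of seedlings, and each pool a precipitate and an input, which makes 12 libraries in 4 groups. The host genotype changes together with the bait, so an effect of the line and an effect of the bait cannot be told apart within the precipitates. The libraries compared here include no beads-only and no untagged sample.

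*rbcL* encodes the large subunit of Rubisco, the enzyme that fixes CO2 in the Calvin-Benson cycle. The small subunit is encoded in the nucleus, and both subunits are assembled in the chloroplast stroma. Chloroplast mRNAs of this kind are usually bounded at the 5′ end by a bound protein, which for *rbcL* is the pentatricopeptide repeat protein MRL1, and at the 3′ end by a stem-loop that holds back exonucleases. Maturase K, by contrast, is known as a splicing factor of group IIA introns, which *rbcL* does not have.

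The borders of the segments are shown first, because each level below is a mean between 2 of them. The sequences are those of the plastid record in RefSeq, 5′ to 3′ on the plus strand, and capitals mark the bases that begin the new segment. Borders were set by the fold change between the baits, so a border does not place a step in level at that base. In the precipitates a border lay 74 nt upstream of the start codon, between nt 54883 and 54884. Another lay between nt 56357 and 56358, 40 nt before the end of the coding part. In the inputs a border within the leader lay 39 nt upstream of the start codon, between nt 54918 and 54919.
Precipitate border in the leader (nt 54869 to 54898): ttaaatctattcctaATTTATGTCGAGTAG
Input border in the leader (nt 54904 to 54933): gttgttttgttttatTGCAAGAATTCTAAA
Precipitate border in the coding part (nt 56343 to 56372): gaaagagatcacattTAACTTCCCAACCAT

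The last input border lay 81 nt after the stop codon, between nt 56478 and 56479. It fell inside the second arm of a perfect inverted repeat with arms of 18 nt and a loop of 5 nt, which a search of the 111 nt after the stop codon found at nt 56445 to 56462 and nt 56468 to 56485. Capitals in the second arm mark its 11 bases on the *rbcL* side of the border. A perfect repeat with arms of at least this length was present in the same stretch after 5 of 80 protein-coding genes in the counted stretch of the plastid genome (6.25%), *rbcL* included. The match is a description of the letters and does not show that a structure forms.
First arm (nt 56445 to 56462): CTCGGCTCAATCTTTTTT
Second arm (nt 56468 to 56485): AAAAAAGATTGagccgag

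The *At*MKIP1-YFP precipitates held 213384 to 319005 mapped plastid reads each, and the *At*BE3-YFP precipitates 119799 to 257634. The inputs were deeper, with 2213500 to 2868106 reads in the *At*MKIP1-YFP line against 2241732 to 2740959 in the *At*BE3-YFP line, so their values carry a smaller counting error. The rRNA loci took 21.5 to 26.5% of mapped reads in *At*MKIP1-YFP precipitates and 22.1 to 31.1% in *At*BE3-YFP precipitates, and 74.99 to 79.5% in the inputs of both lines. Counts in the target loci of Maturase K and the stretches joined to them (*trnK*, *atpF*, *trnV*, *trnI*, *trnA*, *rps12* and the stretch of *rpl23* to *rpl22* with *rpl2*) came to 134 to 140% of the mapped reads in *At*MKIP1-YFP precipitates and to 14.6 to 22.6% in *At*BE3-YFP precipitates. Values above 100% arise because a read is counted in each segment that it touches. Only the input RNA had been depleted of rRNA and fragmented. Levels are given as counts per 1000000 mapped plastid reads (CPM), and per nt where stretches or genes are compared.

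*rbcL* was among the most abundant plastid mRNAs in every group. In the inputs it ranked second of 34 protein-coding genes per nt in both lines, with 9.34 CPM per nt in the *At*MKIP1-YFP line and 9.12 CPM per nt in the *At*BE3-YFP line. *psbA*, which encodes the D1 protein of photosystem II, came first with 37.6 and 41.4 CPM per nt in these lines. Among 26 protein-coding genes with a value in the precipitates, *rbcL* ranked number 5 for *At*MKIP1-YFP with 20.2 CPM per nt and number 4 for *At*BE3-YFP with 36.5 CPM per nt. The genes above it in the *At*MKIP1-YFP precipitates were *psbA*, *atpF*, *rpl23* and *rpl2*, of which the last 3 belong to the target loci. These ranks are a description of mean levels and were not tested, and genes that are split into many short segments rank higher because a read counts in each of them.

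In the precipitates *rbcL* was lower with *At*MKIP1-YFP than with *At*BE3-YFP per mapped read. The segment that holds 1400 nt of the coding part and the last 74 nt of the leader (nt 54884 to 56357) had 32416, 29952 and 26826 CPM in the 3 *At*MKIP1-YFP precipitates. It had 49556, 56576 and 55059 CPM in the 3 *At*BE3-YFP precipitates. Every *At*MKIP1-YFP value lay below every *At*BE3-YFP value. The mean was 29731 ± 2801 CPM for *At*MKIP1-YFP and 53730 ± 3694 CPM for *At*BE3-YFP (SD, n = 3 each), so that the first was 55.3% of the second. By edgeR's quasi-likelihood test the log2 fold change was −0.85 (SE 0.19, Benjamini-Hochberg adjusted p = 6.5e-04 over 553 segments). At an adjusted p under 0.01, 15.2% of the tested precipitate segments were lower with *At*MKIP1-YFP. Behind these values stood 6917 to 9555 counts in the *At*MKIP1-YFP libraries, against 6596 to 14576 in those of *At*BE3-YFP.

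This difference was not seen when the counts were scaled to what lies outside the target loci and the rRNA. On that scale *rbcL* made up 6.50, 6.53 and 6.30% of the remaining counts in *At*MKIP1-YFP precipitates, against 6.42, 7.21 and 6.59% in *At*BE3-YFP precipitates. The groups overlapped, and the log2 fold change was −0.066 (SE 0.16, edgeR adjusted p = 0.71), with 2 SE to either side at −0.38 and 0.25. With no scaling at all it was −0.30 (SE 0.45, edgeR adjusted p = 0.57). Other scalings put it lower, at −3.01 with TMM, −2.84 with DESeq2 size factors and −1.58 with the sum of counts. Over all tested segments the median log2 fold change was 2.06 per mapped read, 2.85 with the outside scaling and −0.08 with TMM. Relative to the median of its own scaling *rbcL* was at −2.94 to −2.85 under the scalings and tests compared. Most of the 553 tested segments lie in the target loci, so this distance is one to target segments and does not set *rbcL* apart from other RNAs. Of the 135 tested precipitate segments outside the target loci, 84 were lower and 5 higher per mapped read, with a median log2 fold change of −0.73. The *rbcL* value was thus close to the median of segments that are not targets, and 51 of the 135 had a lower value. With the outside scaling that median was 0.07, and 3 of 134 such segments were lower and 19 higher. Both sets include the rRNA segments, whose counts the outside scaling leaves out of the library size. How far the counts in the target loci account for the lower share of *rbcL* was not tested beyond these scalings.

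**Figure D1:**
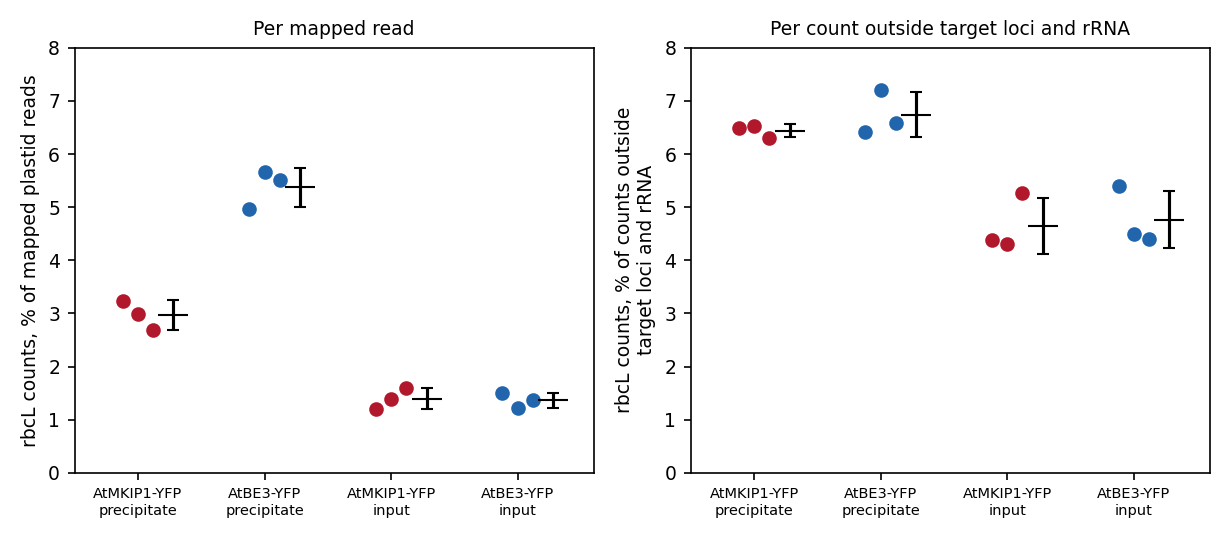
Counts of *rbcL* in each of the 12 libraries as percent of mapped plastid reads (left) and as percent of the segment counts outside target loci and rRNA (right). Points are pools, bars are the mean with the SD (n = 3). On the left the 3 *At*MKIP1-YFP precipitates (2.68 to 3.24%) lie below the 3 *At*BE3-YFP precipitates (4.96 to 5.66%) and the inputs overlap, whereas on the right the precipitates overlap too (6.30 to 6.53% against 6.42 to 7.21%).

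The segments on both sides of the coding segment had differences of like or smaller size. The downstream one also spans the plus-strand genes *accD*, *psaI*, *ycf4*, *cemA*, *petA*, *petL*, *petG*, *psaJ*, *rpl33* and *rps18*. The upstream one spans *trnF* and *trnM* on this strand. Their values are thus not those of *rbcL* flanks alone. The downstream segment, which runs over 15753 nt from nt 56358 to 72110 and holds the last 40 nt of the coding part, had 13464, 13135 and 11861 CPM with *At*MKIP1-YFP and 21909, 23522 and 23539 CPM with *At*BE3-YFP. Its log2 fold change was −0.84 (SE 0.18, edgeR adjusted p = 5.0e-04). The upstream segment, which runs over 6771 nt from nt 48113 to 54883, had 1364, 1571 and 1373 CPM with *At*MKIP1-YFP and 2124, 2135 and 1745 CPM with *At*BE3-YFP. Here the groups did not overlap either, but the log2 fold change of −0.48 (SE 0.18, edgeR adjusted p = 0.021) did not pass 0.01. It passed with DESeq2 (adjusted p = 0.0092) and in edgeR without *At*BE3-YFP precipitate 3 (adjusted p = 0.0082). Its sign turned to 0.08 with no scaling and to 0.31 with the outside scaling.

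The precipitate table covers most of the mRNA with 1 segment, so the shape of the signal within it has no value there. The ratios below set that segment against the long segments on either side, which lie almost wholly outside the mRNA and span other genes. No difference in these ratios between the baits was detected. The coding segment stood 95.1-fold above the upstream segment per nt with *At*MKIP1-YFP and 123-fold with *At*BE3-YFP. Over the downstream segment it stood 24.8-fold with *At*MKIP1-YFP and 24.98-fold with *At*BE3-YFP. The log2 ratio of downstream over coding level was −4.63 ± 0.05 with *At*MKIP1-YFP and −4.64 ± 0.04 with *At*BE3-YFP (SD, n = 3 each), a difference of 0.01 (exact two-sided permutation test, p = 0.90). The log2 ratio of upstream over coding level was −6.57 ± 0.17 with *At*MKIP1-YFP and −6.95 ± 0.22 with *At*BE3-YFP (SD, n = 3 each), a difference of 0.38 (exact two-sided permutation test, p = 0.20). With 3 pools against 3 this test cannot go below 0.10. The Benjamini-Hochberg adjusted values over the 4 ratios tested in precipitates and inputs were 0.60 or higher. Since these ratios are taken within a library, no scaling changes them.

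In the inputs no difference in the level of *rbcL* was detected between the lines. The counts of all segments at least 50% inside the gene came to 11984, 13949 and 15873 CPM in the 3 *At*MKIP1-YFP inputs, against 14980, 12172 and 13662 CPM in the 3 *At*BE3-YFP inputs. The ranges overlapped. The mean was 13936 ± 1944 CPM in the *At*MKIP1-YFP line and 13605 ± 1405 CPM in the *At*BE3-YFP line (SD, n = 3 each). The log2 fold change of the gene was 0.03 (SE 0.13, edgeR adjusted p = 0.90), and 2 SE to either side reached −0.22 and 0.29. Of 72 genes and introns tested in the inputs, 0% passed an adjusted p under 0.01 in edgeR, DESeq2 called 0, and 6 were under 0.05 by the unadjusted p of edgeR.

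None of the 15 input segments of *rbcL* passed, against 1.75% of all 572 tested input segments. Their log2 fold changes ran from −0.27 to 0.41 with SEs up to 0.20, and the smallest adjusted p was 0.30 in edgeR. At an unadjusted p under 0.05, edgeR had 1 of the 15 and DESeq2 had 0, and DESeq2 also called 0. Over all input segments edgeR had 91 of 572 under this limit and DESeq2 had 62 of 574. The 1 *rbcL* segment was the stretch of 6 nt at nt 56012 to 56017 (log2 fold change 0.41, SE 0.20, edgeR adjusted p = 0.30). It was also the 1 segment of the 15 whose groups did not overlap. It held 60 to 116 counts per library, the fewest of the 15. How many of all input segments did not overlap was not counted.

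Along the mRNA the input signal was uneven in both lines, with steps of like size. The plus strand upstream of the mRNA (nt 52094 to 54803) was at 0.0837 ± 0.0234 CPM per nt in *At*MKIP1-YFP inputs and 0.0850 ± 0.0215 CPM per nt in *At*BE3-YFP inputs (SD, n = 3 each). Past the border 154 nt upstream of the start codon the segment means were higher. The stretch from nt 54806 to 54918 had 2.78 ± 0.50 CPM per nt with *At*MKIP1-YFP and 3.20 ± 0.73 CPM per nt with *At*BE3-YFP (SD, n = 3 each). This was 33.2-fold above the stretch before it with *At*MKIP1-YFP and 37.6-fold with *At*BE3-YFP.

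The segment mean was higher again past the border printed above, 39 nt upstream of the start codon. The stretch from there into the coding part (nt 54919 to 55438) had 10.2, 11.7 and 13.4 CPM per nt in *At*MKIP1-YFP inputs, against 12.6, 10.2 and 11.5 CPM per nt in *At*BE3-YFP inputs. It was 4.24-fold above the leader stretch with *At*MKIP1-YFP and 3.57-fold with *At*BE3-YFP. No value of either line stood apart from the other line there.

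The middle of the coding part was lower. From nt 55439 to 55782 the level was 5.13 ± 0.70 CPM per nt with *At*MKIP1-YFP and 5.30 ± 0.65 CPM per nt with *At*BE3-YFP, and from nt 55873 to 56011 it was 3.39 ± 0.42 with *At*MKIP1-YFP and 3.17 ± 0.13 with *At*BE3-YFP (SD, n = 3 each). The stretch after it (nt 56018 to 56303) held the highest level among coding stretches of at least 50 nt, with 11.67, 14.003 and 15.57 CPM per nt in *At*MKIP1-YFP inputs, against 14.4, 11.5 and 12.8 CPM per nt in *At*BE3-YFP inputs. Among these stretches the highest was 4.39-fold above the lowest with *At*MKIP1-YFP and 4.07-fold with *At*BE3-YFP. The lowest was not the same in both lines. It was nt 55785 to 55859 with *At*MKIP1-YFP (3.13 CPM per nt) and nt 55873 to 56011 with *At*BE3-YFP (3.17 CPM per nt). Base composition differed between the stretches too. G and C made up 49.3% of the highest stretch, 44.6% at nt 55873 to 56011, 41.3% at nt 55785 to 55859 and 40.1% at nt 55439 to 55782. They made up 44.0% of the high stretch at nt 54919 to 55438. At nt 56304 to 56410, with 10.2 CPM per nt in *At*MKIP1-YFP inputs, they made up 38.3%. The part of base composition in the levels was not tested.

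Copies of *rbcL* sequence also exist outside the plastid. Of the 1872 windows of 30 nt between nt 54700 and 56600, 307 were identical to a stretch of the mitochondrial genome, all between nt 55507 and 56061, and 280 to a stretch of nuclear chromosome 2. The reads had been mapped to the plastid genome alone, so reads from such copies cannot be told apart from *rbcL* reads. The span of the mitochondrial windows overlaps the low part of the input profile and the start of the highest coding stretch. The windows shared with chromosome 2 lay between nt 55507 and 56449. Not every window within either span was identical. Where within the spans the identical windows lie was not recorded, so how much of the highest stretch has a copy is not given. Chromosomes 3 and 5 shared 17 and 25 windows.

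In the inputs the segment means were far lower past the border in the inverted repeat. The stretch from nt 56304 to 56410, which runs past the stop codon, had 10.2 ± 1.6 CPM per nt with *At*MKIP1-YFP and 10.5 ± 0.8 CPM per nt with *At*BE3-YFP (SD, n = 3 each). Up to the border in the inverted repeat (nt 56411 to 56478) the level was 7.87, 9.18 and 9.70 CPM per nt in *At*MKIP1-YFP inputs, against 8.28, 7.58 and 8.74 CPM per nt in *At*BE3-YFP inputs. Past the border (nt 56479 to 58071) it was 0.152, 0.160 and 0.159 CPM per nt in *At*MKIP1-YFP inputs, against 0.167, 0.131 and 0.159 CPM per nt in *At*BE3-YFP inputs. The level past the border was 0.0176 times that before it with *At*MKIP1-YFP and 0.0186 times with *At*BE3-YFP. The stretch past the border also holds the first part of *accD*, which encodes a subunit of acetyl-CoA carboxylase.

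**Figure D2:**
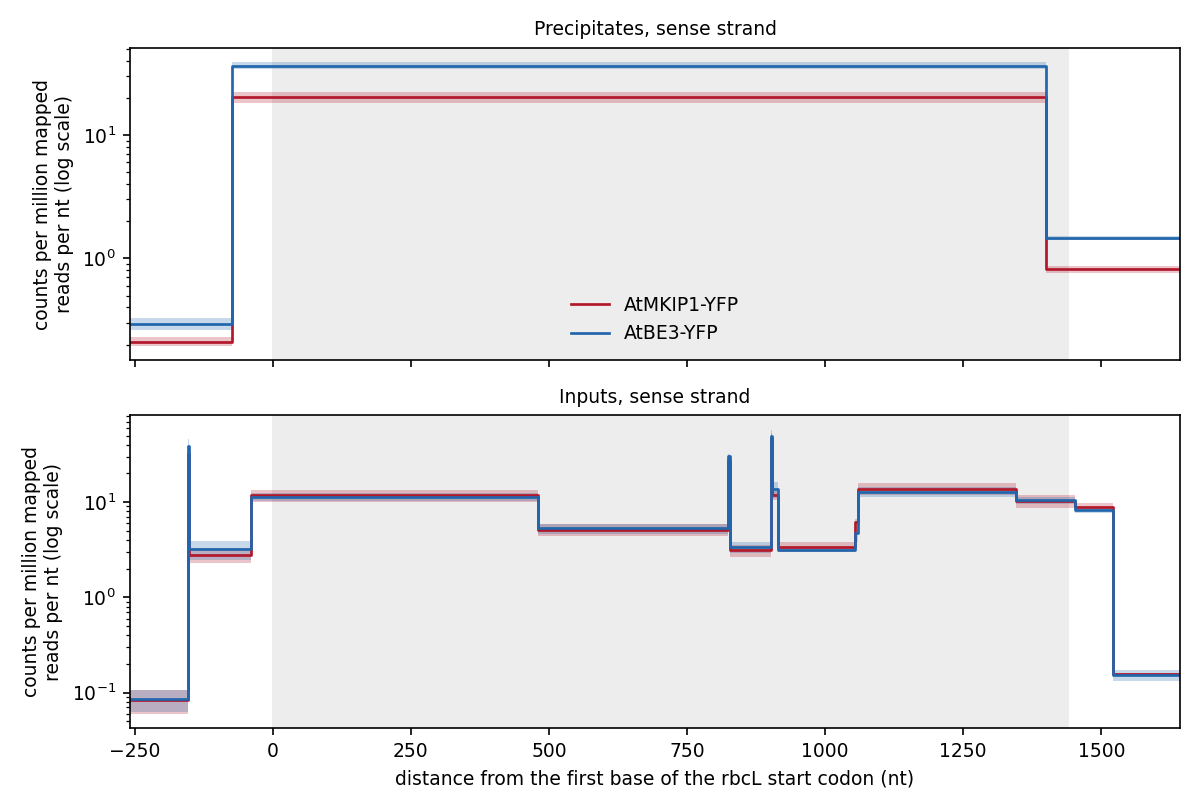
Mean level per nt of the plus-strand segments along *rbcL* in precipitates (top) and inputs (bottom), by distance from the start codon, with the SD over 3 pools as a band, the coding part in grey and a log scale on the vertical axes. The precipitate lines run apart at every position (20.2 CPM per nt with *At*MKIP1-YFP and 36.5 with *At*BE3-YFP over the coding segment), whereas the input lines lie on each other and drop past the border 81 nt after the stop codon. The narrow peaks of the inputs are segments of 2 to 11 nt, whose level per nt is raised by reads that reach over them.

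Averaged by length over the 3 sections, the inputs had 3.28 ± 0.52, 9.27 ± 1.29 and 3.74 ± 0.42 CPM per nt over leader, coding part and end with *At*MKIP1-YFP. With *At*BE3-YFP these were 3.46 ± 0.56, 9.04 ± 0.94 and 3.51 ± 0.26 CPM per nt (SD, n = 3 each). The leader here is nt 54700 to 54957 and the end is nt 56398 to 56600, so both sections reach past the mRNA. The log2 ratio of leader over coding level was −1.50 ± 0.04 with *At*MKIP1-YFP and −1.39 ± 0.09 with *At*BE3-YFP, a difference of −0.11 (exact two-sided permutation test, p = 0.30). For end over coding it was −1.31 ± 0.05 with *At*MKIP1-YFP and −1.36 ± 0.10 with *At*BE3-YFP, a difference of 0.06 (exact two-sided permutation test, p = 0.60).

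In the precipitates the same sections had 5.94 ± 0.55, 19.6 ± 1.8 and 0.814 ± 0.054 CPM per nt with *At*MKIP1-YFP and 10.7 ± 0.7, 35.5 ± 2.4 and 1.46 ± 0.06 CPM per nt with *At*BE3-YFP (SD, n = 3 each). The end section is only a mean over the long downstream segment there. The leader section mixes the mean of the coding segment with that of the long upstream segment. Neither the leader nor the 3′ end thus has a value of its own in the precipitates. The segments had been set by the fold change between the baits and not by the level.

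The 5 input segments of 2 to 11 nt had 4.72 to 49.4 CPM per nt, since a read of 18 to 60 nt is counted in each segment it touches. When each count was divided by the segment length plus a read length of 60 nt less 1, they had 0.435 to 2.14 CPM per nt. That correction gave 7.61 CPM per nt over the coding part of the *At*MKIP1-YFP inputs and 7.41 CPM per nt over that of the *At*BE3-YFP inputs. The drop at the 3′ border was 0.0317 times with *At*MKIP1-YFP and 0.0334 times with *At*BE3-YFP on this scale. The highest coding stretch then stood 6.50-fold above the lowest with *At*MKIP1-YFP and 4.80-fold with *At*BE3-YFP, for the stretches named above. The correction was chosen after the values were seen.

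Antisense signal was low. In the precipitates the minus-strand segment across the gene (nt 54636 to 56679) held 79, 87 and 84 counts with *At*MKIP1-YFP and 71, 169 and 65 counts with *At*BE3-YFP. Sense exceeded antisense per nt 127 ± 18-fold with *At*MKIP1-YFP and 135 ± 18-fold with *At*BE3-YFP in the precipitates (SD, n = 3 each). In the inputs it did so 339 ± 12-fold with *At*MKIP1-YFP and 321 ± 25-fold with *At*BE3-YFP, where the antisense segment spans 9505 nt. That input segment starts at nt 53928 and so also holds part of *atpB*, a minus-strand gene that ends at nt 54156. Its level is thus not antisense to *rbcL* alone. The antisense segment of the precipitates was lower with *At*MKIP1-YFP as well, by a log2 fold change of −0.79 (SE 0.24, edgeR adjusted p = 0.0065).

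Set against its own input, *rbcL* was a larger share of the precipitates of both lines per mapped read, more so with *At*BE3-YFP. The log2 fold change of precipitate over input was 1.09 (SE 0.13, edgeR adjusted p = 5.2e-15) with *At*MKIP1-YFP, and 83.3% of the 36 genes and introns tested in both fractions were higher there. With *At*BE3-YFP it was 1.98 (SE 0.14, edgeR adjusted p = 1.3e-36), and 86.1% of the 36 were higher. The fractions were cut into different segments and a read counts in each segment it touches, so these values and shares depend on the segments. With the 60 nt correction over the coding part the mean log2 ratio was 1.32 with *At*MKIP1-YFP and 2.21 with *At*BE3-YFP. The direction of the log2 fold change differed with the scaling of the libraries. With rRNA counts taken off the library size it was −0.64 (edgeR adjusted p = 5.9e-06) with *At*MKIP1-YFP and 0.25 (edgeR adjusted p = 0.038) with *At*BE3-YFP. With TMM scaling both were below 0, at −0.97 with *At*MKIP1-YFP and −0.83 with *At*BE3-YFP. With the outside scaling they were 0.47 with *At*MKIP1-YFP and 0.50 with *At*BE3-YFP.

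The order of the 4 groups per mapped read was thus *At*MKIP1-YFP precipitates below *At*BE3-YFP precipitates and both above the inputs, and the inputs of the lines did not differ beyond their spread. The *At*MKIP1-YFP precipitates had 2.13-fold the mean of their inputs and the *At*BE3-YFP precipitates 3.95-fold. The 95% Wilson intervals of the share of mapped reads were at most 0.129 percentage points to either side in the precipitates and 0.0146 in the inputs, which covers counting error only.

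The bait difference in the precipitates exceeded that in the inputs per mapped read. The interaction of bait and fraction was −0.89 on the log2 scale (SE 0.18, edgeR adjusted p = 4.9e-06), and 58.3% of the 36 genes and introns tested had an interaction below 0 at this threshold. With precipitate and input joined by replicate number, the log2 ratio of precipitate over input was 1.44, 1.10 and 0.76 with *At*MKIP1-YFP, against 1.73, 2.22 and 2.01 with *At*BE3-YFP, and the groups did not overlap. With the outside scaling the interaction was −0.030 (SE 0.15, edgeR adjusted p = 0.85) and with TMM −0.14 (SE 0.21, edgeR adjusted p = 0.58). Of the 36 genes and introns, 21 were below 0 at this threshold per mapped read, 3 with the outside scaling and 2 with TMM.

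**Figure D3:**
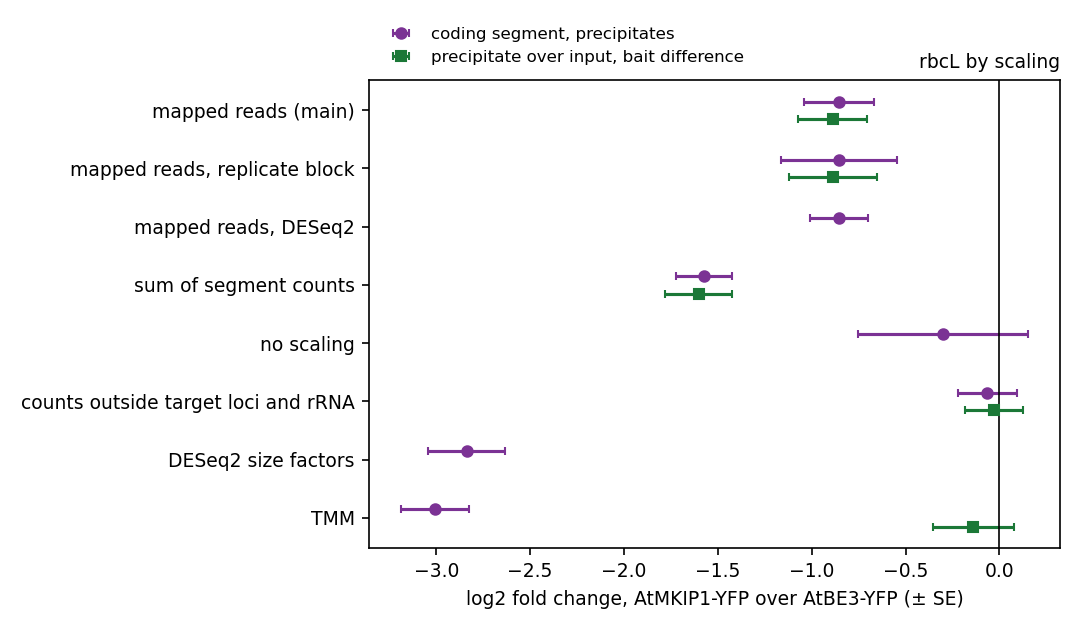
Log2 fold change, *At*MKIP1-YFP over *At*BE3-YFP, of the *rbcL* coding segment in the precipitates (circles) and of its precipitate over input ratio (squares), with the SE as bars, under each way of scaling the libraries. The values per mapped read are −0.85 and −0.89, and with counts outside target loci and rRNA they are −0.066 and −0.030, whereas TMM and DESeq2 size factors put the coding segment at −3.01 and −2.84.

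Other photosynthesis mRNAs were lower in *At*MKIP1-YFP precipitates per mapped read as well. Of 33 plastid genes for photosystems, cytochrome b6f, ATP synthase and Rubisco, 18 had a precipitate value. Of these 15 were lower, *rbcL* included, and 1 was higher at an adjusted p under 0.01 in edgeR, with a median log2 fold change of −0.92. Over all 45 genes and introns tested, 48.9% were lower, and the median was −0.43. *rbcL* itself, at −0.85 (SE 0.14, edgeR adjusted p = 9.1e-06), was number 12 of the 18 and number 18 of the 45 from the lowest value.

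The highest member was *atpF*, the CF0 subunit I of ATP synthase, at 2.17 (SE 0.16), whose intron is a Maturase K target. The next was *psbB*, the CP47 antenna protein of photosystem II, at −0.36 (SE 0.13, edgeR adjusted p = 0.017), which did not pass, like *psbC*, its CP43 counterpart, at −0.43. The lowest were *atpH*, the ring subunit of CF0, at −1.40 (SE 0.17) and *psbL*, a small subunit of photosystem II, at −1.33 (SE 0.19). The neighbours *atpB* and *atpE*, which encode the β and ε subunits of CF1, fell by 1.22 and 1.28 on the log2 scale in the precipitates, and *accD* had no segment of its own there. In the inputs 28 of the 33 had a value and 0 passed, with a median of 0.03.

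With the outside scaling only 3 of the 18 were lower and 2 higher, against 4 lower and 18 higher of all 45 genes and introns. With no scaling 0 were lower, and 0 of the 45. When any overlapping segment was counted, 32 genes were lower, and when only segments wholly inside a gene were counted, 6 were. These 2 counts are not set against the share of all genes under the same rule, so they say nothing particular about photosynthesis genes.

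**Figure D4:**
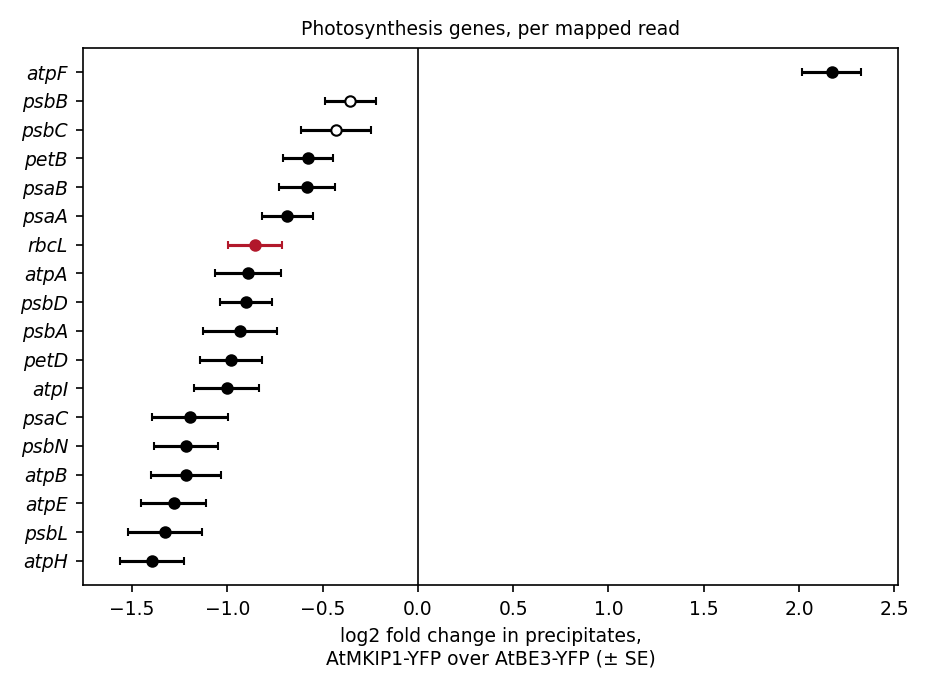
Log2 fold change in the precipitates per mapped read, *At*MKIP1-YFP over *At*BE3-YFP, with the SE as bars, for the 18 photosynthesis genes with a value. Filled points have an adjusted p under 0.01 in edgeR and *rbcL* is in red. *rbcL* (−0.85) lies among the genes below 0, and *atpF* (2.17) is the 1 gene above 0.

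The genes whose level followed that of *rbcL* most closely over the 12 libraries were *psaC*, *petD* and *psaA*. Pearson's r of log2(CPM + 0.5) was 0.996 for *psaC*, an iron-sulfur subunit of photosystem I, 0.993 for *petD*, subunit IV of cytochrome b6f, and 0.992 for *psaA*, a core subunit of photosystem I. These were the highest 3 of 35 genes and introns. The 12 libraries fall into precipitates and inputs that differ in rRNA share and handling, so r includes the step between the fractions. Over the 6 precipitates alone r was 0.994 for *psaC*, 0.992 for *petD* and 0.997 for *psaA*, and *petB* (0.997) and *atpI* (0.996), named after their values were seen, stood above *psaC* and *petD*. Over the 6 inputs alone r was 0.840 for *psaC*, 0.948 for *petD* and 0.841 for *psaA*.

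In the 4 adjoining plus-strand segments the differences were mixed. In the precipitates the segment before the upstream one (nt 46757 to 48112) had 3.76 ± 0.44 CPM per nt with *At*MKIP1-YFP and 7.69 ± 0.19 CPM per nt with *At*BE3-YFP (SD, n = 3 each), a log2 fold change of −1.03 (SE 0.18, edgeR adjusted p = 7.8e-05). The short segment after the downstream one (nt 72111 to 72119) had a log2 fold change of −0.12 (SE 0.25, edgeR adjusted p = 0.66). In the inputs the segment before (nt 52082 to 52093) had 0.09 (SE 0.17, edgeR adjusted p = 0.83) and the segment after (nt 58072 to 58099) had 0.64 (SE 0.31, edgeR adjusted p = 0.27).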

How the data were processed

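The authors trimmed and size-selected the reads, removed duplicates by molecular identifiers, mapped them with STAR to the chloroplast genome (TAIR10) and counted them with DiffSegR. Per the submitters' notes Cutadapt and UMI-tools were also used, and versions are not given in the sources used here. The header of the input read totals does not mention removal of duplicates. Counts were deposited as whole numbers for each segment and strand, and the deposited totals of mapped reads served as library sizes. Segment borders were drawn from the contrast of the baits that is then tested, so p-values are not independent of them. The authors' own fold changes and p-values were not used.

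Counts were tested by the quasi-likelihood F test of edgeR 4.0.16 under R 4.3.3 (default filter with a minimum count of 10, Benjamini-Hochberg adjustment, adjusted p under 0.01), on the whole tables. The SE is the log2 fold change divided by the square root of F. DESeq2 1.42.0 was an alternative. Gene values sum the segments at least 50% inside a gene. The precipitate and the input of a pool entered the interaction fit as independent libraries. The test was tried on simulated counts. Permutation tests used scipy 1.17.1. Named are *rbcL*, its neighbours and adjoining segments, genes ranked above it, the 3 most similar genes, and the 2 highest and 2 lowest photosynthesis genes (with *psbC* added after its value was seen). Members, lists and tests were chosen with earlier results of these data known. Pools are separate seedling samples of 1 line each.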

Additional observations from a re-analysis of the deposited data

Results flagged for a closer look

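The difference of precipitate and input differed between the lines for *rbcL*. The interaction of bait and fraction was −0.89 on the log2 scale (SE 0.18, edgeR adjusted p = 4.9e-06, 12 libraries), with the 3 *At*MKIP1-YFP pools below the 3 *At*BE3-YFP pools. It was −0.030 when libraries were scaled to counts outside the target loci and rRNA.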

How the results depend on the processing

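Per mapped read, the bait difference of the *rbcL* coding segment stayed between −0.92 and −0.78 when any 1 library was left out (edgeR adjusted p up to 0.0099, reached without *At*BE3-YFP precipitate 2). It was −0.30 with no scaling and −0.066 with counts outside target loci and rRNA as library size, and passed in neither. The interaction of bait and fraction was −0.99 to −0.78 with 1 library left out, −0.14 with TMM and −0.030 with the outside scaling, again without passing. Precipitate over input turned to −0.97 (TMM) and −0.64 (rRNA taken off) with *At*MKIP1-YFP and to −0.83 (TMM) with *At*BE3-YFP. Scaled by summed counts it was 0.16 and not called with *At*MKIP1-YFP, and with rRNA taken off it was 0.25 and not called with *At*BE3-YFP. With 1 library left out it was 1.00 to 1.20 with *At*MKIP1-YFP and 1.91 to 2.06 with *At*BE3-YFP. The input difference of the gene was −0.07 to 0.13 and was called under no alternative.

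The replicate numbers share only a number between lines: the correlation of same-numbered deviations was −0.11, 0.13 and −0.13 in precipitates. Between precipitate and input of the same line and number it was 0.34, 0.13 and −0.59 with *At*MKIP1-YFP. With *At*BE3-YFP it was 0.09, −0.08 and −0.08. Joining precipitate and input by number thus rests on the sample titles and not on these values. With the replicate block the coding segment was at −0.86 (edgeR adjusted p = 0.0065), the interaction at −0.89 (edgeR adjusted p = 4.4e-04), and no *rbcL* call changed. Depth limits the antisense segment and the 6-nt input segment, with 60 to 169 counts per library.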
